A study of Caenorhabditis elegans with 8 samples.

Results

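Fatty acid desaturases put double bonds into fatty acid chains, and Caenorhabditis elegans has a set of 7 of them, FAT-1 to FAT-7, with which it makes its own monounsaturated and polyunsaturated fatty acids. The genes described here are fat-1 to fat-7, together with sbp-1, which encodes the worm homolog of the sterol regulatory element binding proteins, and mdt-15, which encodes a Mediator subunit that acts as a coactivator of lipid genes. They were chosen by name, through the transcript names that the array gives to its probes. These are 9 of the 19791 genes that were matched on the array, and they had 18 probes, 15 for the desaturases and 3 for the 2 regulators. On each of the 8 arrays all 18 probes exceeded the background threshold of the scanner software, so every one of the 9 genes was tested.

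The samples were whole hermaphrodite larvae that the labels describe as L4 larvae in sleep, grown at 21.5 °C with the bacterium OP50 as food. There were 4 samples of the aptf-1(gk794) mutant and 4 samples of N2, the wild-type laboratory strain, and each sample was RNA pooled from 200 animals. APTF-1 is an AP2 transcription factor, and gk794 is a deletion allele present in every cell of the animal. The comparison addresses which transcripts change in the absence of aptf-1 in sleeping larvae, and the study also describes that the mutant lacks immobility during the time when it should sleep, so that genotype and behavior cannot be told apart. The study calls the 4 samples of a genotype biological samples, but the labels do not say whether they came from separate cultures, and the tests measure the spread between these samples.

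Each sample was hybridized to 1 single-color array. Signal is given as the log2 of the processed spot intensity minus the 75th percentile of that array, so that a value of 0 is the 75th percentile, and a difference is the value in the mutant minus that in N2. Between 72.2% and 79.7% of spots were well above background, 0 were saturated, and the 75th percentile ran from 317 to 842 intensity units. N2 replicate 1 was the array with both the lowest share and the lowest 75th percentile. The neuropeptide gene flp-11 differed by -1.18 (SE 0.0701, adjusted p = 0.00277, limma). The aptf-1 probe did not separate the genotypes, with values of -5.96, -7.22, -4.29 and -7.13 in the mutant and -5.34, -5.24, -5.18 and -5.58 in N2 (exact permutation p = 0.314). It was well above background on 6 of the 8 arrays and not on mutant replicates 2 and 4, where the values are near the floor of the measurement. The array labelled mutant replicate 3 had the highest signal of this probe, which by itself goes against its label. By flp-11, however, this array lay with the mutants at -0.69, where mutant arrays ran from -0.71 to -0.64 and N2 from 0.45 to 0.60. The position of the aptf-1 probe relative to the deletion was not examined here. The arrays lay on 2 slides with 2 of each genotype. On both slides N2 lay at positions 1 and 2 and the mutant at positions 3 and 4, so position and genotype cannot be told apart.

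In C. elegans, saturated fatty acids are first desaturated at the ninth carbon. FAT-6 and FAT-7, which are close relatives, act mainly on stearic acid and FAT-5 on palmitic acid. FAT-2 then makes linoleic acid from oleic acid, FAT-1 is an omega-3 desaturase, and FAT-3 and FAT-4 add the double bonds that lead to arachidonic and eicosapentaenoic acid. The intestine is the main organ of fat synthesis and storage in the worm, and SBP-1, MDT-15 and nuclear hormone receptors such as NHR-49 and NHR-80 are known to act on the genes of the first step. Of the 7 desaturase genes, 5 are on chromosome IV and 2, fat-5 and fat-7, on chromosome V. fat-1 lies next to fat-2 and fat-3 next to fat-4, with 0 protein-coding genes between them, and both regulators are on chromosome III.

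For all 9 genes the difference between aptf-1(gk794) and N2 was within the spread between arrays. A gene was counted as called if its fold change was 1.5 or more and its adjusted p from limma was below 0.05. This count was 0 of 9, against 0.0601% of all 18313 genes and unnamed targets tested (11, with 3 or 0.0164% higher and 8 or 0.0437% lower in the mutant), and at probe level it was 0 of 18, against 0.0594% of all probes tested. At an unadjusted p under 0.05 the count was also 0 of 9, against 12.2% of all tested (4.48% higher and 7.75% lower), and the 4 mutant values overlapped the 4 N2 values for all 9 genes, while 8.1% of all tested did not overlap (3.1% higher and 5% lower). By sign alone 4 of the 9 genes had higher means in the mutant and 5 had lower means. The median difference was -0.01 for the 9 genes and -0.03 for all tested. With quantile normalization this split became 6 higher and 3 lower with a median of 0.05. Without N2 replicate 1 it became 1 higher and 8 lower with a median of -0.11. The sign of these small differences thus depended on the scaling and on single arrays. In whole animals, fewer cells of a type and less RNA per cell cannot be told apart.

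**Figure D1:**
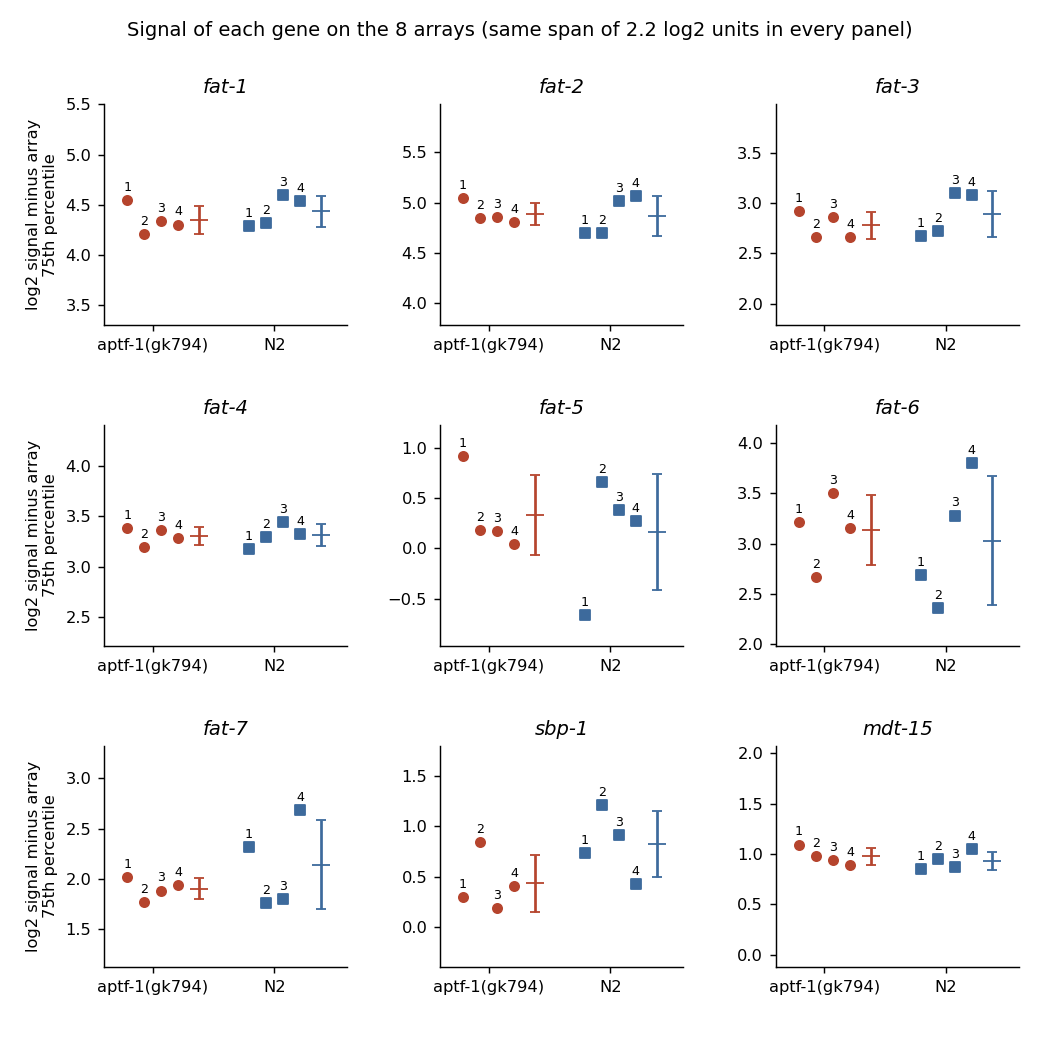
Signal of the 9 genes on each array (log2 signal minus the array's 75th percentile), with aptf-1(gk794) in red circles and N2 in blue squares, the replicate number at each point, and the mean ± SD (n = 4) beside them. The genotypes overlapped in every panel, and fat-5, fat-6, fat-7 and sbp-1 spread more widely between arrays than the other 5 genes.

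The first step was measured by fat-5, fat-6 and fat-7. fat-6 (locus VZK822L.1, 3 probes) had values of 3.21, 2.67, 3.50 and 3.16 in mutant replicates 1 to 4, against 2.68, 2.36, 3.28 and 3.80 in N2 replicates 1 to 4. The lowest and the highest of the 8 values both came from N2 arrays. The means were 3.14 ± 0.346 in the mutant and 3.03 ± 0.638 in N2 (SD, n = 4 each), a difference of 0.11 (SE 0.320, adjusted p = 0.894, limma, exact permutation p = 0.829). Its 95% interval from -0.63 to 0.84 includes 1.5-fold changes in both directions, which lie at -0.585 and 0.585 on this scale. The difference was -0.04 on slide 1 and 0.25 on slide 2.

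fat-7 (F10D2.9, 1 probe) had 2.02, 1.77, 1.88 and 1.94 in the mutant, against 2.32, 1.76, 1.80 and 2.69 in N2. The 4 mutant arrays lay close together, while 2 N2 arrays were above all of them and N2 replicate 2 was slightly below them. The SD was 0.103 in the mutant and 0.442 in N2, and this difference in spread was not tested. The means differed by -0.24 (SE 0.206, 95% interval -0.71 to 0.24, adjusted p = 0.616, limma, exact permutation p = 0.400). Without N2 replicate 4, the highest array, the difference was -0.06. fat-6 and fat-7 are similar in sequence, and whether their probes also bind the transcript of the other gene was not tested.

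fat-5 (W06D12.3, 4 probes) had 0.92, 0.19, 0.17 and 0.04 in the mutant, against -0.67, 0.66, 0.38 and 0.28 in N2. Mutant replicate 1 was the highest array and N2 replicate 1 the lowest, and the other 6 arrays lay between 0.04 and 0.66. N2 replicate 1 was also the array with the lowest 75th percentile, and its part in the value of fat-5 was not tested. The difference of 0.17 (SE 0.310, 95% interval -0.55 to 0.88, adjusted p = 0.821, limma, exact permutation p = 0.686) changed its sign with 1 array. It was -0.03 without mutant replicate 1 and -0.11 without N2 replicate 1. On slide 1, which held both of these arrays, the difference was 0.69, and on slide 2 it was -0.36.

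The spread of fat-5 and fat-6 was shared by their probes. The correlation between probes over the 8 arrays was 0.989 to 0.998 for the 4 probes of fat-5, and 0.985 to 0.990 for the 3 probes of fat-6. The SD of the gene over arrays was 0.467 for fat-5 and 0.478 for fat-6, while the SD between probes, once the mean of each probe and of each array was removed, was 0.0396 for fat-5 and 0.0562 for fat-6. The probes of each gene thus disagreed far less than the arrays did. From the lowest to the highest array the signal covered 3.00-fold for fat-5, 2.71-fold for fat-6 and 1.90-fold for fat-7. Ranked by the SD within genotypes among all genes tested, fat-6 was at percentile 86.7, fat-5 at 85.9 and fat-7 at 72.2.

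The genes that act on polyunsaturated fatty acids were much steadier. fat-2 (W02A2.1, 1 probe), which commits oleic acid to this branch, had 5.04, 4.84, 4.86 and 4.80 in the mutant, against 4.70, 4.70, 5.01 and 5.06 in N2. The mutant values lay inside the range of N2. Their means differed by 0.02 (SE 0.115, 95% interval -0.25 to 0.28, adjusted p = 0.955, limma, exact permutation p = 0.971).

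fat-1 (Y67H2A.8, 2 probes), the omega-3 desaturase, had 4.55, 4.21, 4.34 and 4.30 in the mutant, against 4.29, 4.32, 4.59 and 4.54 in N2. Mutant replicate 1 and N2 replicates 3 and 4 were the 3 high arrays. The difference was -0.08 (SE 0.110, 95% interval -0.34 to 0.17, adjusted p = 0.739, limma, exact permutation p = 0.457), and the 2 probes correlated with r = 0.916 over the arrays.

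fat-3 (W08D2.4, 1 probe) had 2.92, 2.66, 2.86 and 2.66 in the mutant, against 2.67, 2.72, 3.10 and 3.08 in N2. Only N2 replicates 3 and 4 exceeded 3. The difference was -0.11 (SE 0.131, 95% interval -0.42 to 0.19, adjusted p = 0.706, limma, exact permutation p = 0.343).

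fat-4 (T13F2.1, 3 probes) had 3.39, 3.20, 3.36 and 3.28 in the mutant, against 3.18, 3.30, 3.44 and 3.33 in N2. These 8 values lay within 0.264 log2 units of each other, the narrowest range of the 7 desaturases. The difference was -0.01 (SE 0.0867, 95% interval -0.21 to 0.19, adjusted p = 0.980, limma, exact permutation p = 0.971). For fat-1, fat-2, fat-3 and fat-4 the 95% interval excluded a 1.5-fold change in both directions, which was not the case for fat-5, fat-6 and fat-7.

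Of the regulators, sbp-1 had the wider spread. sbp-1 (Y47D3B.7, 1 probe) had 0.29, 0.84, 0.19 and 0.41 in the mutant, against 0.74, 1.21, 0.92 and 0.43 in N2. Of the 4 mutant arrays 3 lay below all N2 arrays, and mutant replicate 2 lay above N2 replicates 1 and 4. The means were 0.434 ± 0.286 in the mutant and 0.823 ± 0.329 in N2 (SD, n = 4 each), so that the mean signal in the mutant was 76.3% of that in N2. This difference of -0.39 (SE 0.199, 95% interval -0.85 to 0.07) was the largest of the 9 genes and did not pass the test (adjusted p = 0.454, limma, exact permutation p = 0.114, where the smallest possible is 0.0286). It was -0.26 on slide 1 and -0.52 on slide 2. Without mutant replicates 2 and 4, the arrays at position 4, it was -0.58 (adjusted p = 0.603, limma). Its sign was the same in 23 of 23 alternative settings, but some of these could not change it. With 1 probe well above background on all arrays, the filters and the median of probes left the difference as it was. The slide and replicate blocks, which are balanced over the genotypes, and the trended robust variance also left it as it was.

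mdt-15 (R12B2.5, 2 probes) had 1.09, 0.98, 0.94 and 0.89 in the mutant, against 0.85, 0.95, 0.87 and 1.05 in N2. The groups were mixed, and the difference was 0.05 (SE 0.0823, 95% interval -0.14 to 0.24, adjusted p = 0.816, limma, exact permutation p = 0.486). Its probes carry the names of different transcripts, R12B2.5a and R12B2.5b, and correlated with r = 0.243 only. The difference was 0.08 for the first and 0.01 for the second. mdt-15 was also the steadiest of the 9 genes, with an SD within genotypes of 0.0873, at percentile 8.27 of all genes tested, for which the median SD was 0.197.

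**Figure D2:**
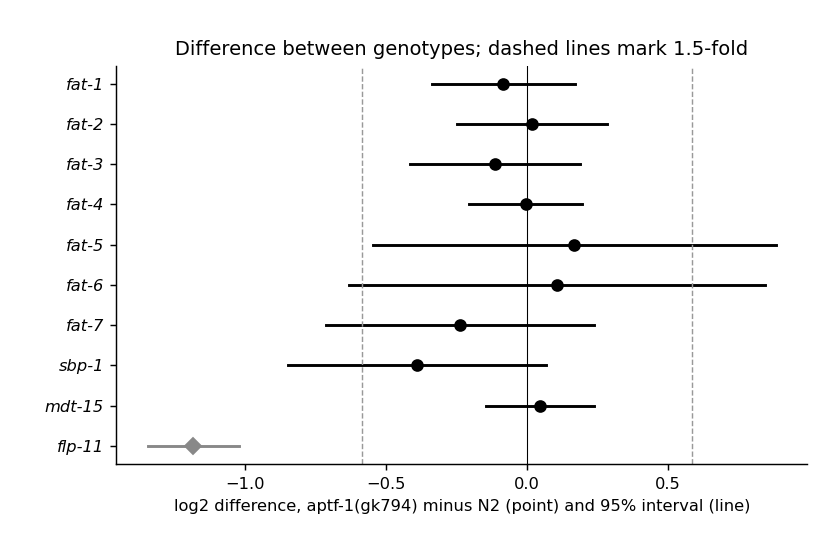
Difference between aptf-1(gk794) and N2 on the log2 scale (points) with the 95% interval from limma (lines) for the 9 genes in black and flp-11 in grey; dashed lines mark 1.5-fold. All 9 intervals include 0, those of fat-1, fat-2, fat-3, fat-4 and mdt-15 stay inside the dashed lines, and flp-11 lies at -1.18.

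The variation of the desaturase genes over the arrays was compared pair by pair. Of the 21 pairs of desaturases, 19 had a positive Pearson correlation over the 8 arrays, with a median of 0.579. The 5 highest of these correlations were all between genes of the polyunsaturated branch, with r = 0.844 for fat-1 and fat-2, 0.922 for fat-1 and fat-3, 0.826 for fat-1 and fat-4, 0.863 for fat-2 and fat-3, and 0.812 for fat-3 and fat-4, while r was 0.684 for fat-2 and fat-4. These genes share the arrays and their scaling, so that the correlations describe these 8 samples.

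All 36 pairs of the 9 genes were tested, and 8 had an unadjusted exact permutation p under 0.05. After adjustment over the 36 pairs, 1 pair passed by Pearson's r, fat-1 and fat-3 (r = 0.922, exact permutation p = 0.000818, adjusted p = 0.0295), for which Spearman's rho was 0.905 (exact permutation p = 0.00456, adjusted p = 0.0821). By Spearman's rho, the 1 pair that passed was fat-1 and fat-4 (rho = 0.952, exact permutation p = 0.00114, adjusted p = 0.0411, with r = 0.826, p = 0.0132 and adjusted p = 0.114). For fat-1 and fat-3, r was 0.926 without the 2 arrays farthest from the median of fat-1 and 0.834 without the 2 farthest from that of fat-3. Within slides it was 0.951 and 0.936 over 4 arrays each, and it was 0.913 for deviations from the genotype means. It was 0.885 to 0.954 when each array was left out in turn. With quantile normalization r was 0.801, with normexp background correction 0.756 and 0.797 with the deposited table, and the adjusted p then no longer passed the threshold.

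The pair was not particular among all genes of the array. Of 14879 named genes, 12 correlated more closely with fat-1 than fat-3 did, and fat-1 was at rank 35 for fat-3. fat-2 was at rank 141 for fat-1, and fat-4 at rank 206.

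The genes of the first step shared less. fat-6 and fat-7 correlated with r = 0.501 (rho = 0.571, exact permutation p = 0.211, adjusted p = 0.484), fat-5 and fat-6 with r = 0.114 and fat-5 and fat-7 with r = -0.331. N2 replicate 4 was the highest array for both fat-6 and fat-7, and N2 replicate 1 was low for fat-6 but the second highest for fat-7. fat-6 correlated more closely with the polyunsaturated branch, with r = 0.776 to fat-2 and 0.742 to fat-3.

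sbp-1 had a negative correlation with 6 of the 7 desaturases, and the strongest was with fat-6 (r = -0.749, exact permutation p = 0.0369, adjusted p = 0.174, rho = -0.571, exact permutation p = 0.151, adjusted p = 0.340). It was -0.619 without the 2 arrays farthest from the median of fat-6 and -0.500 without the 2 farthest from that of sbp-1. On slide 1 it was -0.310 and on slide 2 -0.879, and it was -0.864 to -0.580 when each array was left out in turn. The correlation of sbp-1 and fat-6 did not pass after adjustment over the 36 pairs. For deviations from the genotype means, r to sbp-1 was -0.847 for fat-6, -0.803 for fat-7 (-0.364 for the values themselves) and 0.157 for fat-5. The r between mdt-15 and the 7 desaturases ran from 0.244 for fat-4 to 0.671 for fat-5.

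**Figure D3:**
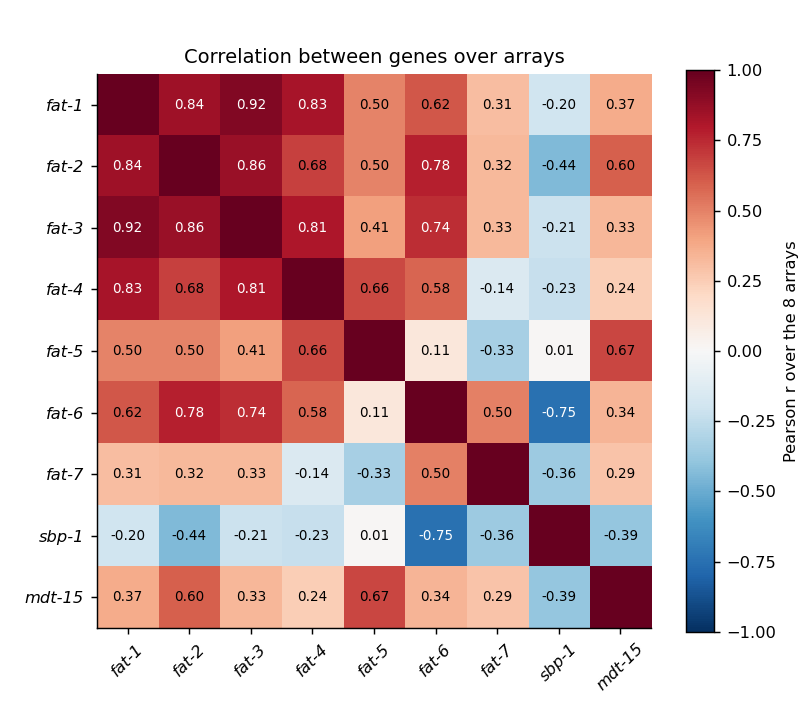
Pearson correlation over the 8 arrays for each pair of the 9 genes, from blue (-1) to red (1). The block of fat-1 to fat-4 at the upper left holds values of 0.68 to 0.92, and the row of sbp-1 is negative except for fat-5 at 0.01.

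Whole animals hold all tissues, and 31 of 35 marker genes from 7 tissues or stages passed the filter, all of them well above background on all arrays, while dpy-7, msp-10, peel-1 and fbn-1 did not pass. The summed level of the 5 intestinal markers (elt-2, ges-1, asp-1, ifb-2 and pept-1), in units of the 75th percentile of the array, was 157 to 183 in the mutant and 196 to 253 in N2. These ranges did not overlap, but asp-1 made up most of the sum. Its mean was 7.31 in the mutant and 7.66 in N2 on the log2 scale, against 2.53 and 3.00 for pept-1, the next highest. Of the 5 markers, 3 (elt-2, asp-1 and pept-1) had 4 mutant values below all N2 values, while ges-1 and ifb-2 overlapped. Of the 5, 0 were called (lowest adjusted p = 0.286, limma). Over all genes tested 5% lay lower in the mutant without overlap. In the other lists this was the case for elt-3 of the epidermis (difference -0.44, adjusted p = 0.158, limma) and unc-22 of the body wall muscle (-0.16, adjusted p = 0.464, limma), and the neuronal gene egl-3 lay higher without overlap (0.28, adjusted p = 0.317, limma). N2 replicates 3 and 4 had the highest intestinal marker levels, with mean deviations of 0.26 and 0.39 from the mean of the arrays, and were also the arrays with the highest values of fat-3. The summed level of the 4 molting markers tested was 0.384 to 4.95 in the mutant and 0.315 to 0.510 in N2. Mutant replicates 3 and 4 stood out by their mean deviations of 1.36 and 1.09, mostly through mlt-10. mlt-10 had 2.19 and 1.54 on these arrays, against -3.79 to -1.97 on the others, and mlt-11 and noah-1 were highest there by less. nas-37 had -2.69 and -3.20 there and -2.79 on N2 replicate 3. On mutant replicates 3 and 4, fat-1 to fat-4 deviated by -0.17 to 0.05. fat-6 deviated by 0.42 and 0.08 and sbp-1 by -0.44 and -0.22 on these same arrays. The summed level of the 4 epidermal markers tested was 59.0 to 202 in the mutant and 46.4 to 179 in N2. The sum mostly followed dpy-13, with means of 6.65 in the mutant and 6.36 in N2. Mean deviations of the 4 markers were also highest on mutant replicates 3 and 4, at 0.93 and 0.69, mostly through rol-6 and dpy-13. rol-6 had 3.70 and 3.03 there, against -1.03 to 1.07 on the others, while elt-3 had its lowest value, 1.09, on mutant replicate 3. Over the 8 arrays these mean deviations correlated with r = 0.609 to fat-6 and -0.740 to sbp-1, and with -0.05 to 0.25 to the other members. For the mean deviations of the intestinal markers, r to the members ran from 0.01 for fat-5 to 0.760 for fat-3. These correlations are given as a description. The part of the tissue and stage markers in the values of the desaturases was not tested.

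**Figure D4:**
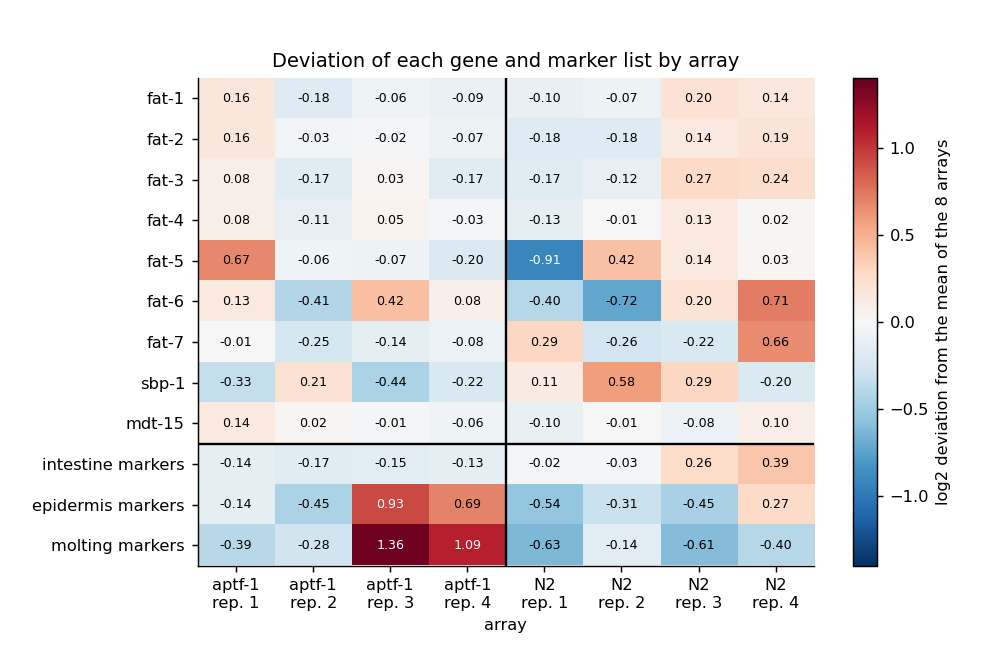
Deviation of each gene, and mean deviation of the intestinal, epidermal and molting marker lists, from the mean of the 8 arrays (log2), with the 4 aptf-1(gk794) arrays left of the line and the 4 N2 arrays right of it. fat-1 to fat-4 moved little, and all 4 had positive values in mutant replicate 1 and N2 replicates 3 and 4. The mean of the molting markers was high in mutant replicates 3 and 4, mostly through mlt-10.

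The genes around the desaturases did not pass the test either. Of 113 listed genes in 9 lists of lipid metabolism all but 6 were tested, and these 6 (elo-8, acox-1.4, acs-9, cpt-3, ech-9 and fil-2) were not tested here because they were not matched to a probe or did not pass the filter. 0 of the genes tested were called by limma, 10 (9.35%) had an unadjusted p under 0.05 with 4 higher and 6 lower in the mutant, against 12.2% of all tested, and 6 (5.61%) did not overlap, against 8.1%. The lowest adjusted p was 0.172.

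Among genes upstream of the desaturases, fatty acid synthesis had 4 genes with higher and 2 with lower means in the mutant (6 tested, median 0.04). pod-2, which encodes acetyl-CoA carboxylase, differed by -0.22 (SE 0.145, adjusted p = 0.526, limma), the lowest of this list, and acly-2, an ATP citrate lyase gene, by 0.18 (SE 0.120, adjusted p = 0.530, limma), the highest. fasn-1, which encodes the fatty acid synthase, differed by 0.03.

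Fatty acids are lengthened by elongases between the desaturation steps. All 11 elongation genes tested had a lower mean in the mutant, with a median of -0.19, while 54.7% of all genes tested had a lower mean. elo-1, which acts on polyunsaturated fatty acids, had the lowest difference at -0.30 (SE 0.126, adjusted p = 0.405, limma). elo-2, an elongase of palmitic acid, differed by -0.19, and elo-5 and elo-6, which are needed for branched-chain fatty acids, by -0.27 and -0.12, where the elo-5 probe had no value on the N2 replicate 1 array and was fitted on the other 7. let-767, which encodes a reductase of the elongation cycle, had the highest at -0.04. Each of these genes overlapped between the genotypes, and the number of genes with a lower mean was 10 with quantile normalization, 9 with normexp background correction, 8 on slide 2 and 9 without N2 replicate 4. The median was -0.09 on slide 2 and also without N2 replicate 4, which was the highest array for 10 of the 11 genes. N2 replicate 4 was also the array with the highest intestinal markers, all 5 of which had lower means in the mutant (-0.46 to -0.13), and their part in the elongation genes was not tested. The cytochrome b5 genes, whose products pass electrons to desaturases, differed by -0.11 (cytb-5.1) and -0.23 (cytb-5.2, adjusted p = 0.428, limma).

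Among 13 other genes tied to desaturase expression, 7 had higher and 6 lower means in the mutant, with a median of 0.02. sams-1, which makes the methyl donor S-adenosylmethionine, had the lowest difference at -0.71 (SE 0.273, adjusted p = 0.373, limma, exact permutation p = 0.0857). The sams-1 signal in the mutant was 61.1% of that in N2, and the 2 groups overlapped. It rests on 1 probe with low signal, from -3.91 to -2.26 over the arrays. nhr-80 had the highest at 0.21 (SE 0.148, adjusted p = 0.554, limma), and nhr-49 differed by 0.03. paqr-2 and iglr-2, which act together in the response of membrane lipids to cold and saturated fat, differed by -0.10 and -0.14.

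Among genes that use fatty acids, beta-oxidation genes were split evenly, with 15 higher and 15 lower means and a median of -0.00330. acox-1.5, which encodes a peroxisomal acyl-CoA oxidase, had the lowest difference at -0.46 (SE 0.0988, adjusted p = 0.172, limma) without overlap, and cpt-4, a carnitine palmitoyl transferase gene, the highest at 0.96 (SE 0.419, adjusted p = 0.407, limma) with overlap. Of the 20 acyl-CoA synthetase genes 13 had a higher mean (median 0.10), from -0.22 for acs-4 to 0.42 for acs-3. acs-2, a target of NHR-49, differed by 0.05. The 9 fatty acid binding protein genes ran from -0.31 for lbp-6 (adjusted p = 0.339, limma) to 0.20 for lbp-9 with a median of -0.06. Of the 14 genes of fat storage and lipolysis, 10 had a higher mean (median 0.15). lipl-2, a lipase gene, was at 1.15 (SE 0.396, adjusted p = 0.339, limma), the highest of all lists. It was 0.73 without N2 replicate 1, the lowest array, and -0.02 with slide and linear position in the model, under which cpt-4 was at 0.11. This model separates position from genotype only by assuming a linear trend, since the genotypes lay at different positions, so its values are imprecise. dgat-2, which encodes an enzyme of triglyceride synthesis, differed by -0.41 (SE 0.125, adjusted p = 0.294, limma). The sphingolipid desaturase genes ttm-5 and F33D4.4 differed by -0.01 and -0.05.

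**Figure D5:**
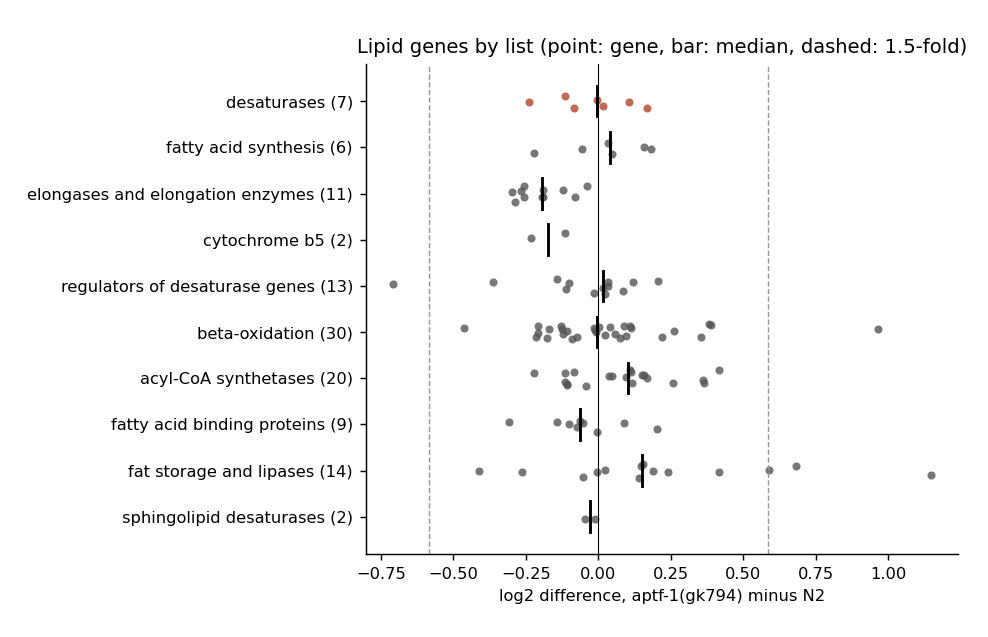
Difference between aptf-1(gk794) and N2 (log2) for each gene of the 7 desaturases (red) and of 9 lists of lipid genes (grey, number of genes tested in brackets); black bars are medians and dashed lines mark 1.5-fold. The 7 desaturases lie between -0.24 and 0.17, the elongation genes all lie below 0, and lipl-2 at 1.15 and cpt-4 at 0.96 are the highest.

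The member with the largest SD over the 8 arrays was fat-6. Among the 14879 named genes with a value on all arrays, the genes whose pattern was most like it were F39H12.1 (r = 0.995), cdf-2, which encodes a zinc transporter (r = 0.989), mec-17, which encodes a tubulin acetyltransferase (r = 0.988), pmp-2, which encodes a peroxisomal membrane transporter (r = 0.987), and the cuticle collagen gene col-131 (r = 0.982). Between the lowest and the highest array col-131 covered 2.94 log2 units and mec-17 covered 0.50, where fat-6 covered 1.44. Its nearest desaturase was fat-2 at rank 1143, and fat-7 was at rank 3342. These are the highest values among many genes over few arrays and are given as a description.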

How the data were processed

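The authors deposited the scanner output of 8 single-color Agilent arrays, with spot intensities on a linear scale from Feature Extraction 10.7.3.1, and a table of processed intensities whose columns had nearly equal percentiles; the table was used as an alternative. The array was designed on genome build ce4 (WS170). Control spots and outlier spots (18 to 62 per array) were left out, spots of a probe were averaged on the log2 scale, and the 75th percentile of each array was subtracted. Tested were the 32007 of 43603 probes that Feature Extraction marked as well above background on each of the 4 arrays of one genotype or of both, and the value of a gene is the mean of its tested probes. Probes were named by a RefSeq table (WBcel235), which matched 78.6% of them. Its coordinates were used only for the chromosomes of the genes and for which members are neighbors. Differences between genotypes came from moderated two-sided tests in limma 3.58.1 (R 4.3.3), with Benjamini-Hochberg adjustment over 18313 genes and unnamed targets; exact permutation tests were two-sided over 70 assignments. The procedure was tested on simulated data. Signal over background, not counts, and the number of arrays limit the precision.

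The members and lists were chosen with earlier results of these data known, and so were the tests. Named were the members, 14 listed lipid genes, the highest and the lowest difference of each list, the 5 genes most like the member with the largest SD, and aptf-1 and flp-11. Alternatives were other scalings and background corrections, filters, slide, position and replicate blocks, thresholds, and leaving out arrays. Other scalings and left-out arrays for the correlations were added after the data were seen. The normexp alternative used the median signal of each spot and an offset of 50. A planned comparison of proteins and promoters was not made here. The tests did not pair samples by replicate number, because the labels do not say whether a number marks a shared batch. Python 3.11.15 with scipy 1.17.1 read the files and ran the permutation tests.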

Additional observations from a re-analysis of the deposited data

Results flagged for a closer look

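fat-5 had 1 array that lay apart from the others of its genotype. In the mutant, replicate 1 was at 0.92 while the other 3 mutant arrays were between 0.04 and 0.19, a gap of 0.835 of the whole range, which is above Dixon's 95% critical value for 4 samples. Of 22 groups of 4 arrays looked at (the 9 genes, flp-11 and aptf-1 in both genotypes), this was the 1 above the critical value, and 1.1 were expected by chance. Its 4 probes correlated with r = 0.989 to 0.998 over the arrays. Why this array is high was not tested.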

How the results depend on the processing

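The count of members called and of pathway genes called was 0 in every alternative run, and fat-3, fat-7 and sbp-1 kept the sign of their difference in 23 of 23, where fat-3 ran from -0.29 to -0.00074 and fat-7 from -0.37 to -0.057. Each of these genes has 1 probe, so the filters and the median of probes could not change the sign. The slide and replicate blocks, which are balanced over the genotypes, and the trended robust variance could not change it either. For sbp-1 the difference ran from -0.58 to -0.26 and the adjusted p from 0.379 to 0.950; with the replicate number as a block it had an unadjusted p of 0.0355 and an adjusted p of 0.379 (limma), and the unadjusted p was 0.0245 without mutant replicate 2, 0.0267 without N2 replicate 4 and 0.0368 without both mutant replicates 2 and 4. The count of all genes called (11) was 7 with median scaling, 2 without a filter, 24 with probes well above background on all 8 arrays, 4 with at least 2 arrays, 21 with a trended robust variance, 60 at an adjusted p under 0.1, and 0 with slide and linear position, within slide 1, within slide 2 or without both mutant replicates 2 and 4; it was 2 to 5 with 1 array left out. With the replicate block it was 0. Deviations of same-numbered arrays correlated with -0.110, 0.236, 0.0630 and 0.198, and 1 of 4 arrays of each genotype was closest to its own number. The count of correlated pairs (1) was 0 after normexp, after quantile normalization and with the deposited table, 2 with deviations from the genotype means, and 0 to 2 with 1 array left out. The signs of small differences changed. fat-1 was 0.030 after quantile normalization, 0.042 after normexp, 0.033 with the deposited table and 0.0076 without both mutant replicates 2 and 4, and fat-4 in the same order was 0.065, 0.031, 0.067 and 0.062. With slide and position fat-2 was -0.20 and fat-6 was -0.47. Position is separated from genotype there only by assuming a linear trend, and the unadjusted p of sbp-1 was 0.379 at a difference of -0.47 (limma). On slide 1 fat-6 was -0.039, and on slide 2 fat-2 was -0.050, fat-4 was 0.0075, fat-5 was -0.36 and mdt-15 was -0.081. With 1 array left out fat-2 ran from -0.040 to 0.082, fat-4 from -0.050 to 0.038, fat-5 from -0.11 to 0.33 and fat-6 from -0.12 to 0.36. The cause of these changes was not tested.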

Other observations

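Some lipid genes outside the naming rule, chosen after their values were seen, had values that did not overlap between the genotypes without passing the test. pmt-2, which encodes an enzyme of phosphatidylcholine synthesis and whose reaction uses the product of sams-1, had means of 3.87 ± 0.145 in the mutant and 4.24 ± 0.142 in N2 (SD, n = 4 each, difference -0.36, adjusted p = 0.288, limma). plin-1, which encodes the perilipin of lipid droplets, had 1.51 ± 0.155 in the mutant and 1.32 ± 0.0228 in N2 (difference 0.19, adjusted p = 0.441, limma), and acs-11, an acyl-CoA synthetase gene, 0.341 ± 0.0475 in the mutant and 0.223 ± 0.0688 in N2 (difference 0.12, adjusted p = 0.510, limma). 8.1% of all genes tested did not overlap.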
